A study of Arabidopsis thaliana with 4 samples.

Results

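RNA levels in the suppressor lines m90 and s215 of Arabidopsis thaliana were set against each other, locus by locus. Of the 24288 loci in the deposited table, 18356 (75.6%) had a mean of at least 1 RPKM (reads per kilobase of transcript, scaled to library size) over these 2 libraries and were used. Each line had 1 library, from whole seedlings of the Columbia ecotype 12 days old, kept at 23 °C under days of 16 h light and nights of 8 h, on Murashige and Skoog (MS) medium with 3% sucrose. The series also holds 1 library of atprmt5, mutated in PRMT5, which encodes a protein arginine methyltransferase, and 1 of wild type, which are given here as background. The series design names the lines as suppressors of atprmt5. The labels used here do not state which gene is altered in m90 or in s215, nor whether either line also carries atprmt5. With no replicates there is no test between the lines, and every difference is between 2 libraries.

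PRMT5 adds methyl groups to arginines of many proteins, among them Sm proteins, which form the ring of the spliceosomal small nuclear ribonucleoproteins (snRNPs). The Prp19-associated complex (NTC), which the series title names, joins the spliceosome as it is activated. In Arabidopsis, loss of PRMT5 is known for splicing defects, late flowering through the repressor FLC and an altered circadian clock. Some proteins associated with the NTC are also known for a role in plant immunity. These functions, and others with well-known marker genes in seedlings, were followed with 42 gene lists. The lists named 813 loci, of which 806 were in the table and 724 were used.

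Differences are given as log2((RPKM + 1 in m90)/(RPKM + 1 in s215)), so a positive value means higher in m90. A locus is called higher or lower from 2-fold on this scale, which understates differences at low levels. Fold ratios of single genes are ratios of RPKM itself, and the range in brackets after each is its 95% exact interval (Clopper-Pearson, taking the reads of both libraries together as fixed). The intervals rest on approximate read numbers and cover counting error only, not variation between plants. Where a line had 0 reads, the fold is given as at least its value with 3 reads put in place of the 0.

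The s215 library stood apart from the other 3. It had 2893 loci at 0, whereas m90 had 1884, atprmt5 had 1736 and wild type had 1882, at scaling totals between 17350612 and 17901204 reads. Its 100 most abundant loci held 20.7% of the summed RPKM, against 26.9% to 27.8% in the others. Against the shared wild-type library, the SD of the log2 ratio over the 18356 loci was 0.49 for m90 and 1.39 for s215. At least 2-fold from wild type were 500 loci higher (2.72%) and 413 lower (2.25%) in m90, and 2452 higher (13.4%) and 4226 lower (23%) in s215. In many of the contrasts below, though not in all, m90 lay nearer to wild type than s215.

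Between the lines, 4521 loci (24.6%) were higher in m90 by 2-fold or more and 2917 (15.9%) lower by as much. In either direction this made 7438 loci (40.5%), and the other 10918 (59.5%) lay within 2-fold. The median log2 difference was 0.06 and its SD across loci 1.45. Past 8-fold there were 573 loci higher and 344 lower in m90, and past 32-fold there were 56 higher and 60 lower. A locus at 0 in either line passed the minimum only through the other line and had to differ: 61 of the loci used were at 0 in m90 and 288 at 0 in s215. The minimum likewise set the direction of list and family members at or near 0 in either line, which the counts and medians below include. Counts of list members below are read against the 24.6% and 15.9%.

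**Figure D1:**
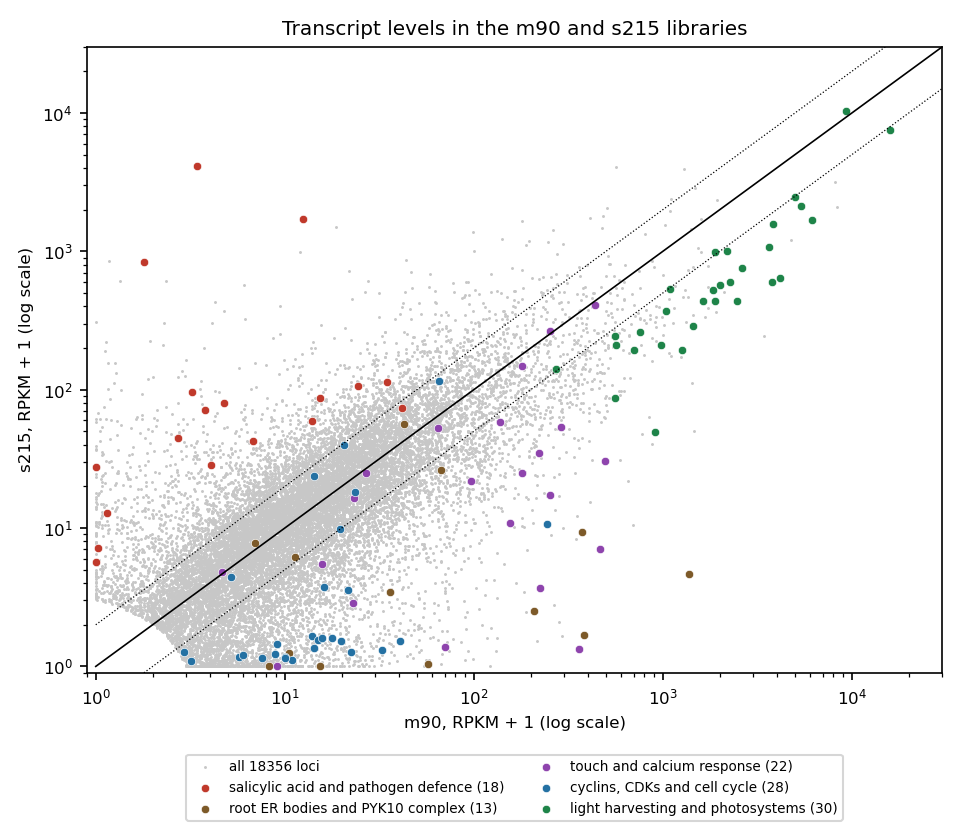
RPKM + 1 of 18356 loci in the m90 library (horizontal, log scale) and in the s215 library (vertical, log scale), with equality as a solid line and 2-fold as dotted lines. Salicylic acid and defence genes (red) lie above the diagonal, up to PR1 at 4144 RPKM in s215, and the ER body, touch, cell cycle and light-harvesting genes lie mostly below it.

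Of the 15 lowest loci in m90, PR1, PR2, PR5, LURP1, AIG1, BG3, CRK4, RLP23 and WAK1 are genes of pathogen responses or cell-surface receptors. The 15 highest held PYK10, NAI2, JAL33 and JAL22 of the root ER body system, the transcription factor genes RRTF1 and DDF1, and the jasmonate-responsive storage protein gene VSP2. The upstream regions of LURP1, PYK10 and RRTF1 are printed here because these loci are among those that separate the lines most. Each is the 250 bases before the annotated start, read 5′ to 3′ on the gene's strand from the RefSeq genome TAIR10.1. Capitals mark matches on either strand to the W box (TTGACC or TTGACT, bound by WRKY factors) or to TGACG (bound by TGA factors). LURP1 is chr2:6213367-6213616, plus strand. PYK10 is chr3:2843782-2844031, minus strand. RRTF1 is chr4:16451626-16451875, plus strand.
LURP1: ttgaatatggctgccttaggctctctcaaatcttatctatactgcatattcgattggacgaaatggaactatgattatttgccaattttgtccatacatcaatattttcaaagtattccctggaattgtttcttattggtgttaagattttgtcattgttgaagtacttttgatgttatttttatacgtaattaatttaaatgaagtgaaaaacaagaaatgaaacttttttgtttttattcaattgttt
PYK10: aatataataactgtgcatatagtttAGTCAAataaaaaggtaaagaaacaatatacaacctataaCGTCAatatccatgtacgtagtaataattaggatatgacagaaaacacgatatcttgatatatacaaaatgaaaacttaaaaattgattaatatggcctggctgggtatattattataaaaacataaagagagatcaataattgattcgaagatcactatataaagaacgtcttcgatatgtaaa
RRTF1: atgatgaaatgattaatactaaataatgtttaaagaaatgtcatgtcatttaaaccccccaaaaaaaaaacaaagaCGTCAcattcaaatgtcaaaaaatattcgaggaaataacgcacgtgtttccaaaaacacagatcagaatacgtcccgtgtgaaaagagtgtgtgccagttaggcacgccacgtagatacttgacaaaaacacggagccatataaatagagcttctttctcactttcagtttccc

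The PYK10 window held 1 match to the W box and 1 to TGACG, the RRTF1 window held 1 to TGACG, and these letters were not in the LURP1 window. Among 17891 windows of this length, 28.4% held a W box, 19.5% held TGACG and 2.84% held CGCGTT, a motif bound by calmodulin-binding CAMTA factors. The W box was in 1 of the 15 highest and in 4 of the 14 lowest loci with a window, TGACG in 3 and 5 of them, and CGCGTT in none. Among the touch and calcium genes, 8 of 22 windows held TGACG and 2 held CGCGTT. Of 18 salicylic acid and defence genes, 4 had a W box and 2 had TGACG. These matches are descriptions of short windows and not binding sites.

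Salicylic acid is the hormone through which Arabidopsis sets off systemic defence against biotrophic pathogens, and PR genes are its classic targets. Of the 18 measured members of the salicylic acid and pathogen defence list, 17 were lower in m90 than in s215 and 0 were higher, with a median log2 difference of -3.15. The exception was the salicylic acid receptor gene NPR1, at 40.9 RPKM in m90 and 73 in s215. In m90, 3 of the 20 loci of the list in the table were at 0. Any of these that passed the minimum did so only through s215 and had to be lower in m90, as did members near 0 in m90. Summed over all 20 members in the table, ALD1 and PDF1.2B below the minimum included, the list stood at 160 RPKM in m90, against 7520 in s215, 117 in atprmt5 and 94.0 in wild type. Against the shared wild-type library the list median was 3.48 in s215, with 18 members higher and 0 lower. In m90 it was 0.45, with 5 members higher and 0 lower.

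PR1 (AT2G14610, chromosome 2, 6241640 to 6242541, minus strand, 1 exon, coordinates here and below from TAIR10.1) was at 2.44 RPKM in m90, 4144 in s215, 13.1 in atprmt5 and 1.21 in wild type, 1699-fold lower in m90 than in s215 (1248 to 2400). In s215 it was more abundant than most photosynthesis transcripts. PR2, a beta-1,3-glucanase gene, was at 0.81 RPKM in m90, against 830 in s215, 0.403 in atprmt5 and 0.554 in wild type, 1026-fold lower (680 to 1680). PR5, encoding a thaumatin-like protein, was at 11.5 RPKM in m90, against 1699 in s215, 7.47 in atprmt5 and 2.59 in wild type, 148-fold lower (130 to 170). LURP1, required for full defence against downy mildew, was at 0.171 RPKM in m90, 852 in s215, 3.84 in atprmt5 and 0.562 in wild type. The pattern of all 4 genes was the same, with s215 far above the rest.

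The steps ahead of the PR genes were also lower in m90. ICS1, the isochorismate synthase of salicylic acid synthesis, was at 5.76 RPKM in m90 and 41.9 in s215. EDS5, which exports isochorismate from the plastid, was at 3.07 in m90 and 27.8 in s215, and PBS3, which conjugates it with glutamate, at 1.72 in m90 and 43.9 in s215. The activators of ICS1 differed likewise: SARD1 was at 3.79 RPKM in m90 and 79.2 in s215, and CBP60G at 14.4 and 85.6. Signalling by intracellular receptors runs through EDS1 (33.8 RPKM in m90, 113 in s215), PAD4 (23.4 and 105) and SAG101 (12.9 and 58.5). The difference therefore covered synthesis, regulation and output of the pathway.

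Genes of other branches of immunity, among them PAD3, which is in the same list, were lower in m90 than in s215 as well. PAD3, the last enzyme of camalexin synthesis, was at 2.23 RPKM in m90, 95.2 in s215, 2.05 in atprmt5 and 1.46 in wild type, 42.7-fold lower in m90 than in s215 (33.5 to 54.5). CYP71A13 of the same pathway had 0 RPKM in m90 and 26.7 in s215. FMO1, which makes N-hydroxypipecolic acid, was at 0.0322 RPKM in m90 and 6.12 in s215. The defensin gene PDF1.2A, classically a target of jasmonate and ethylene rather than of salicylic acid, had 0 RPKM in m90, atprmt5 and wild type, and 4.72 in s215.

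The WRKY and defence regulator list was split. Of 20 members, 11 were lower in m90 and 5 were higher, and the median was -1.18. WRKY54 was at 1.72 RPKM in m90, 122 in s215, 1.93 in atprmt5 and 1.47 in wild type, 70.9-fold lower in m90 than in s215 (52.6 to 97.6). WRKY70, its close relative, was at 61.9 RPKM in m90, against 420 in s215, 32.5 in atprmt5 and 50 in wild type, 6.78-fold lower (6.44 to 7.15). WRKY25 and WRKY18 were at 31.7 and 32.3 RPKM in m90, and at 245 and 220 in s215. MYB15, WRKY22, WRKY40, WRKY46 and WRKY11 went the other way. WRKY40, induced within minutes by many stresses, was at 469 RPKM in m90, 57.3 in s215, 7.58 in atprmt5 and 172 in wild type, 8.18-fold higher in m90 than in s215 (7.72 to 8.66). For MYB15, the values were 115 RPKM in m90, 3.2 in s215, 2.84 in atprmt5 and 32.3 in wild type, 36.1-fold higher (29 to 45.9). These 2 were above wild type in m90 and below it in s215.

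Calcium and touch genes respond within minutes to handling, wounding and other stimuli. Of 22 measured members, 15 were higher in m90 than in s215 and 0 lower, and the median was 2.55. Here the lines lay on opposite sides of wild type: the list median against the shared wild-type library was 1.48 in m90 and -1.06 in s215. Summed over the list, the level was 3959 RPKM in m90, against 1179 in s215, 900 in atprmt5 and 1798 in wild type.

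RRTF1 (AT4G34410, chromosome 4, 16451876 to 16453260, plus strand, 1 exon), an ERF factor gene of redox responses, was at 359 RPKM in m90, 0.329 in s215, 5.16 in atprmt5 and 110 in wild type, 1093-fold higher in m90 than in s215 (548 to 2504). ERF6 was at 222 RPKM in m90, against 2.7 in s215, 15 in atprmt5 and 86.5 in wild type, 82.3-fold higher (64 to 107). XTH22, a wall enzyme gene known as a touch gene, was at 463 RPKM in m90, against 6.1 in s215, 120 in atprmt5 and 297 in wild type, 75.9-fold higher (65 to 88.6). In each of these 3 genes the order was m90, wild type, atprmt5, s215. ERF13 was at 69 RPKM in m90 and 0.37 in s215, and the calmodulin-like gene TCH2 at 492 and 29.3. Some members did not separate the lines: the calmodulin gene TCH1 was at 436 RPKM in m90 and 411 in s215, and MPK3, a kinase gene of immune signalling, at 179 and 147.

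Jasmonate genes followed a like division. Of 22 members, 13 were higher in m90 and 1, AOC1, was lower, and the median was 1.70. VSP2 was at 266 RPKM in m90, 1.79 in s215, 161 in atprmt5 and 269 in wild type, 148-fold higher in m90 than in s215 (111 to 202). MYC2, the main transcription factor of the pathway, was at 448 RPKM in m90, against 69.5 in s215, 38.6 in atprmt5 and 178 in wild type, 6.45-fold higher (6.24 to 6.67). The VSP2 contrast was a low s215, whereas for MYC2 m90 was also above wild type. The synthesis gene LOX3 was at 70.7 RPKM in m90 and 6.27 in s215, but LOX2 was at 149 and 254. CYP94B3, which inactivates the hormone, was at 66.3 RPKM in m90 and 0.034 in s215, about 1 read, which gives a ratio of 1953 with an interval of 397 to 87566.

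Heat shock genes were higher in m90 for 11 of 16 members and lower for 0, and the median was 1.84. HSFA2, a heat shock factor gene, was at 26.5 RPKM in m90, 1.29 in s215, 0.629 in atprmt5 and 1.18 in wild type, 20.4-fold higher in m90 than in s215 (15.1 to 28.7). This gene was high in m90 alone. HSP18.2 was at 24.6 RPKM in m90, 0.41 in s215, 14.6 in atprmt5 and 24 in wild type, a pattern with s215 low instead. The abscisic acid, drought and cold list had 9 of 28 members higher in m90 and 6 lower, and the median was 0.14, or -0.04 after correction for GC content and length. DREB2A, at 116 RPKM in m90 and 10.1 in s215, was on the higher side, and GOLS2, encoding a galactinol synthase, at 45.4 and 705, on the lower. Abundant members such as COR47 (751 RPKM in m90, 720 in s215) did not separate the lines.

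**Figure D2:**
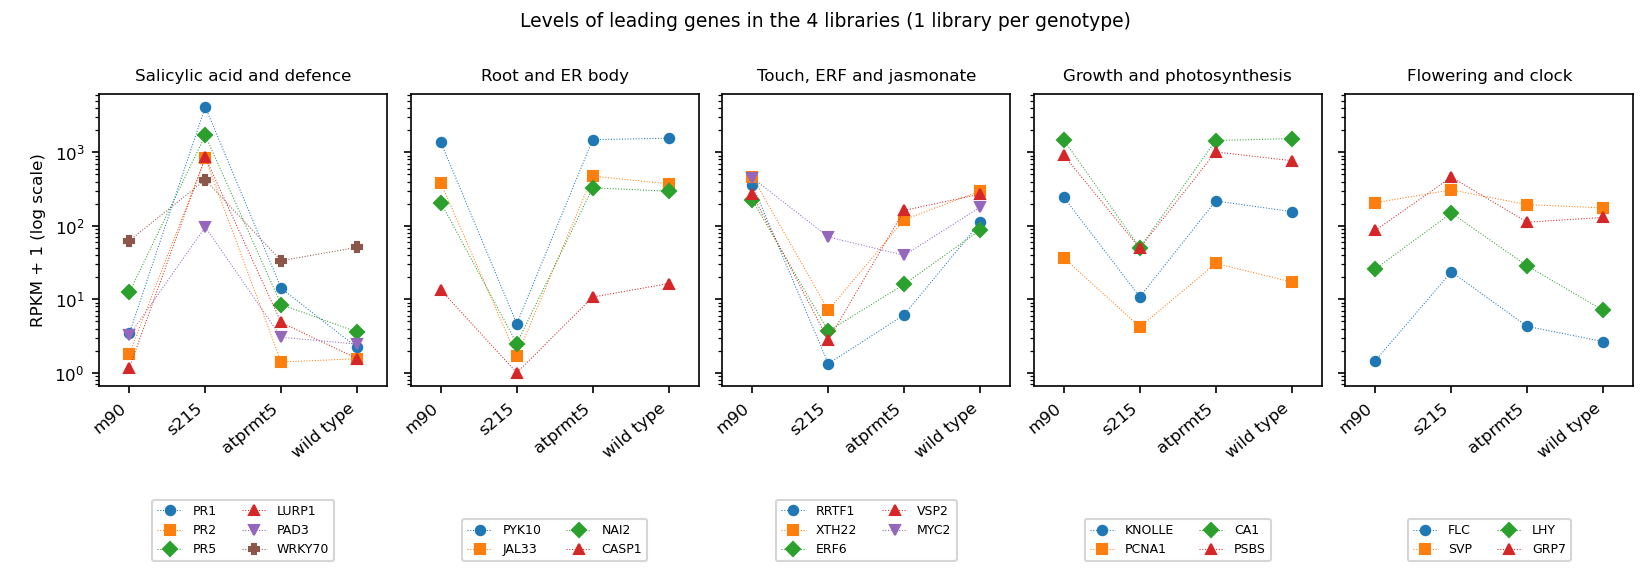
RPKM + 1 (log scale) of leading genes in the m90, s215, atprmt5 and wild-type libraries, 1 point per library, with dotted lines joining the points of a gene. Defence genes peak in s215, root and ER body genes have their minimum there, and RRTF1, XTH22, ERF6 and MYC2 are highest in m90.

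Root-specific transcripts were present in m90 and mostly near 0 in s215. The samples are labelled as whole seedlings. Among 14 root hair and root epidermis markers, 9 were at 0 in s215, and their summed level was 36.2 RPKM in m90, against 0.911 in s215, 75.8 in atprmt5 and 45.0 in wild type. Those at 0 in s215 included RHD6, the regulator of root hair fate, and COBL9. RSL4, at 0 in both lines, was at 1.26 RPKM in atprmt5 and 0.486 in wild type. The 8 that passed the minimum did so through their m90 level, so that their being higher in m90, at a median of 1.77, was set by the minimum itself. Among 19 endodermis, Casparian strip and suberin markers, 6 were at 0 in s215 and 0 in the other libraries. Their summed level was 164 RPKM in m90, against 49.8 in s215, 208 in atprmt5 and 173 in wild type. Of 16 that passed the minimum, 15 were higher in m90. Those at or near 0 in s215, such as CASP1, CASP2, PER64 and HORST, passed only through m90, so their direction was set by the minimum. FAR5 (31.9 RPKM in m90, 8.75 in s215) and KCS20 (29.6 and 29.3) were above the minimum in both lines. CASP1, a Casparian strip protein gene, was at 12.4 RPKM in m90 and 0 in s215, at least 65.1-fold higher. In whole seedlings, fewer cells of a type and less RNA per cell cannot be told apart, and how far the root content of the s215 sample enters other results was not tested.

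ER bodies are compartments of Brassicaceae that store beta-glucosidases, and PYK10 is their main enzyme in roots. Of 13 members of this list, 10 were higher in m90 than in s215 and 0 lower, and the median was 3.37, the highest of the lists with a median. In s215, 2 of the 13 were at 0, so they passed the minimum only through m90 and had to be higher there. BGLU21, at 56 RPKM in m90 and 0.0331 in s215, likewise passed only through m90. PYK10 (AT3G09260, chromosome 3, 2840477 to 2843781, minus strand, 13 exons) was at 1367 RPKM in m90, 3.65 in s215, 1484 in atprmt5 and 1553 in wild type, 374-fold higher in m90 than in s215 (311 to 452). The other 3 libraries were close to one another for this gene. JAL33, a lectin gene of the PYK10 complex, was at 381 RPKM in m90, against 0.674 in s215, 473 in atprmt5 and 371 in wild type, 565-fold higher (344 to 946). NAI2, needed to form ER bodies, was at 206 RPKM in m90 and 1.5 in s215. MEB1, MEB2 and MVP1 lay within 2-fold.

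Nutrient uptake genes, many of them root genes, differed in direction from list to list. The iron deficiency list had 16 of 23 members higher in m90 and 0 lower, and the median was 2.04. In s215, 10 of its 27 loci in the table were at 0, and any of these that passed the minimum had to be higher in m90. NAS1, a nicotianamine synthase gene, was at 53.7 RPKM in m90, 1.85 in s215, 78.1 in atprmt5 and 58.5 in wild type, 29.1-fold higher in m90 than in s215 (21.6 to 40). The short transcript AT1G47395 was at 121 RPKM in m90 and 0 in s215, at least 585-fold higher. Its neighbour in the list, AHA2, a proton pump gene, did not separate the lines (154 RPKM in m90, 126 in s215). Of 6 ferritin and vacuolar iron genes, 2 were higher in m90, VTL5 and FER3, and 1, FER1, was lower, and the median was -0.35.

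The nitrate list had 12 of 23 members higher in m90 and 5 lower, and the median was 1.45. Plastid GLN2, which assimilates the ammonium of photorespiration, was at 1250 RPKM in m90 and 171 in s215, while cytosolic GLN1;1 was at 30.6 and 333. The lower group also held GLN1;4, AMT1;1, NRT3.1 and the high-affinity transporter gene NRT2.5 (0 RPKM in m90, 17 in s215). The BTB and TAZ domain genes BT1 and BT2 were at 47 and 22.9 RPKM in m90, at 0.819 and 0.44 in s215, at 13.2 and 19.1 in atprmt5, and at 154 and 182 in wild type, so that both lines were below wild type and s215 by more.

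Many phosphate starvation genes were lower in m90 than in s215. Against the shared wild-type library, 3 members of the list below were higher and 0 lower in m90, and 10 higher and 4 lower in s215. The phosphate and sulfate list had 11 of 21 members lower in m90 and 6 higher, and the median was -1.01. SPX1, an inhibitor of the phosphate starvation regulator PHR1, was at 45 RPKM in m90, 382 in s215, 30.7 in atprmt5 and 45.5 in wild type, 8.48-fold lower in m90 than in s215 (7.93 to 9.08). The acid phosphatase gene PAP17 was at 10.8 RPKM in m90 and 117 in s215, and MGD2 and SQD2, which replace phospholipids by other lipids, were at 1.34 and 78.5 RPKM in m90, and at 27.1 and 318 in s215. The root transporter gene PHT1;1 went the other way, at 4.47 RPKM in m90 and 0.161 in s215, as did the sulfate transporter gene SULTR1;2 at 24.3 and 2.85.

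Transcripts of photosynthesis, which are leaf transcripts, were higher in m90 too. Of 30 light harvesting and photosystem genes, 27 were higher in m90 and 0 lower, and the median was 1.8. Their summed level was 86187 RPKM in m90, against 36615 in s215, 85495 in atprmt5 and 86889 in wild type. PSBS, the sensor protein of non-photochemical quenching, was at 904 RPKM in m90, 48.5 in s215, 1010 in atprmt5 and 769 in wild type, 18.6-fold higher in m90 than in s215 (17.6 to 19.7). LHCB1.3 did not separate the lines, at 9322 RPKM in m90 and 10357 in s215, though genes of the LHCB1 family are similar enough that reads between them are uncertain. Among Calvin cycle and photorespiration genes the median was 1.94, and 24 of 26 were higher in m90 with 0 lower. SHM1, the mitochondrial serine hydroxymethyltransferase gene of photorespiration, was at 657 RPKM in m90, against 21 in s215, 610 in atprmt5 and 796 in wild type, 31.3-fold higher (29.1 to 33.8). The carbonic anhydrase gene CA1 was at 1463 RPKM in m90 and 49.4 in s215. For these genes m90, atprmt5 and wild type lay together.

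Genes of senescence and of the breakdown of chlorophyll were lower in m90 than in s215. The dark, sugar starvation and senescence list had a median of -1.12, with 15 of its 27 members lower in m90 and 3 higher. Against the shared wild-type library its median was -0.64 in m90, with 1 member higher and 10 lower. In s215 the median was 0.34, with 11 higher and 8 lower, so differences in both directions offset each other in it. SAG12, a cysteine protease gene used as a marker of leaf senescence, was at 0 RPKM in m90, atprmt5 and wild type, and at 36.3 in s215, at least 281-fold lower in m90. The regulators ORE1 and NAP were at 2.01 and 42 RPKM in m90, and at 38.3 and 511 in s215. Chlorophyll is broken down by the products of NYC1, PPH and PAO, which were at 21.3, 19.4 and 14.6 RPKM in m90, and at 113, 99.7 and 37.7 in s215. The 3 higher members were EXL1 (71 RPKM in m90, 1.98 in s215), GDH2 (44.8 and 19.9) and SWEET15 (13.9 and 0.0442). SWEET15 is a sugar transporter gene also known as a senescence marker. The sugar-repressed members ASN1 (42.8 and 23.3) and TPS11 (28.6 and 34) lay within 2-fold, whereas BCAT2 (2.27 and 60) was lower in m90.

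Of 15 autophagy genes, 5 were lower in m90 and 0 higher, and the median was -0.91. The cargo receptor gene NBR1 was at 32.8 RPKM in m90, 170 in s215, 48.4 in atprmt5 and 39.4 in wild type. Of 12 genes of alternative respiration and mitochondrial stress, 7 were lower and 2 higher, and the median was -1.37. NDA2, an alternative NADH dehydrogenase gene, was at 2.59 RPKM in m90 and 25.9 in s215, and AOX1A, the main alternative oxidase gene, at 44.9 and 71.6. The unfolded protein response list had 2 of 13 lower, CRT3 (99.4 RPKM in m90, 998 in s215) and BIP3 (0.372 and 9.58), and 0 higher, a share close to that of all loci, and the median was -0.29. CRT3 is a calreticulin gene whose product helps to fold the immune receptor EFR.

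Growth-related transcripts were much higher in m90. Of 28 cyclin, CDK and cell cycle genes, 22 were higher and 0 lower, and the median was 2.80, and the 18 DNA replication genes had a median of 1.94, with 16 higher and 0 lower. In s215, 2 of the 30 cell cycle loci in the table were at 0, and any of these that passed the minimum had to be higher in m90. The same held for members near 0 in s215, such as CYCB2;4 (31.6 RPKM in m90, 0.316 in s215). KNOLLE, the syntaxin gene of cell plate formation, was at 242 RPKM in m90, 9.78 in s215, 217 in atprmt5 and 155 in wild type, 24.8-fold higher in m90 than in s215 (21.7 to 28.3). The mitotic cyclin gene CYCB1;2 was at 21.3 RPKM in m90, against 0.274 in s215, 16.2 in atprmt5 and 9.91 in wild type, 77.6-fold higher (41.4 to 191). PCNA1, the sliding clamp gene of DNA replication, was at 35.6 RPKM in m90, against 3.2 in s215, 29.8 in atprmt5 and 16.2 in wild type. In these 3 genes m90 and atprmt5 were above wild type and s215 was below it. The cell cycle inhibitor genes KRP1 (64.5 RPKM in m90, 114 in s215) and KRP2 (19.7 and 38.8), the kinase gene CDKA;1 (22.5 and 17.3) and the transcription factor gene E2FB (4.34 and 7.38) lay within 2-fold.

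Walls, water channels, surfaces and vessels gave the same picture. Of 20 wall-loosening genes, 17 were higher in m90 and 1, XTH24, lower, and the median was 2.27. The 21 aquaporin genes had a median of 1.79, with 19 higher and 0 lower. The plasma membrane channel gene PIP1;3 was at 262 RPKM in m90, 37.8 in s215, 289 in atprmt5 and 352 in wild type. Of 16 leaf epidermis, cuticle and guard cell genes, 9 were higher and 0 lower, and the median was 1.12. PDF1, a gene of the outermost cell layer, was at 190 RPKM in m90 and 5.92 in s215, and SPCH, which starts the stomatal lineage, at 12 and 0.486. The mature guard cell genes KAT1 (14.2 and 21.9) and MYB60 (26.2 and 38.2) lay within 2-fold. In the vascular list 11 of 15 were higher and 0 lower, and the median was 1.8. They were xylem and secondary wall genes such as XCP1 (27.2 and 1.84), with SULTR2;1 and the phloem gene SEOR1. The other phloem genes SUC2 (21.5 and 24.8), APL (16 and 18.6) and PP2-A1 (35.5 and 40.9) did not separate the lines.

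Specialised metabolites showed 2 further contrasts. Of 23 flavonoid and anthocyanin genes, 16 were higher in m90 and 1 lower, and the median was 1.70. DFR, which acts late in anthocyanin synthesis, was at 14.9 RPKM in m90, 1.18 in s215, 82.3 in atprmt5 and 2.53 in wild type, and LDOX at 18, 0.32, 70.8 and 5.14 in the same order. Both lines were below atprmt5 for these 2 genes, with m90 still above wild type and s215 below it. PAP2, a MYB activator gene, was at 0 RPKM in m90 and 5.51 in s215 and was the lower member. Of 26 glucosinolate genes, 19 were higher in m90 and 2 lower, and the median was 1.48. MYB29 and CYP79F1 of the aliphatic branch were at 42.9 and 163 RPKM in m90, and at 3.64 and 25.5 in s215. The lower members were ESM1, which favours isothiocyanates in breakdown, at 159 RPKM in m90 and 761 in s215, and CYP83B1 of the indolic branch, at 40.6 and 125. MYB34, also of the indolic branch, went the other way, at 19.8 RPKM in m90 and 0.937 in s215.

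**Figure D3:**
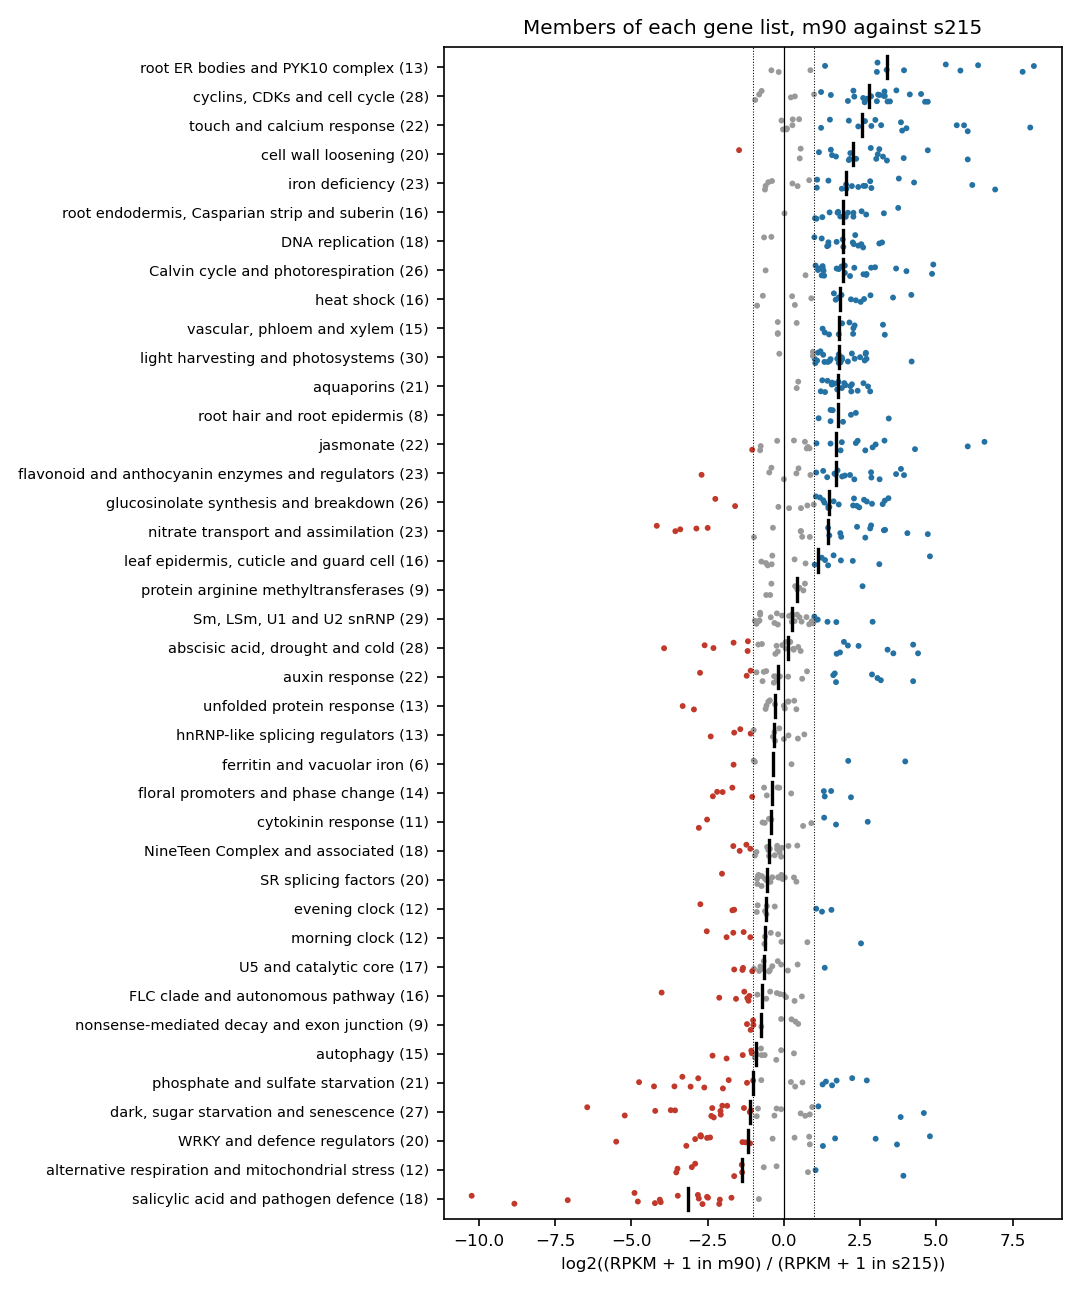
Log2 ratio of m90 over s215 for each measured member (points) and the median (black bars) of 40 gene lists, with the number of members in brackets and 2-fold as dotted lines. Blue points are at least 2-fold higher in m90 and red points at least 2-fold lower. Medians run from -3.15 for salicylic acid and defence to 3.37 for ER bodies.

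Auxin and cytokinin genes differed in both directions, in shares not far from those of all loci. The auxin list had 7 of 22 members higher in m90 and 3 lower, and the median was -0.18. IAA17 was at 72.9 RPKM in m90 and 2.91 in s215, the root carrier gene PIN2 at 8.06 and 0, and IAA29 at 3.18 and 27.1. The cytokinin list had 3 of 11 higher and 2 lower, and the median was -0.41. ARR9, a type-A response regulator gene, was at 34.8 RPKM in m90 and 4.31 in s215, and CKX5, which degrades the hormone, at 0.569 and 9.84.

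Flowering time genes are a known outlet of PRMT5. FLC (AT5G10140, chromosome 5, 3173382 to 3179448, minus strand, 7 exons), the repressor of flowering, was at 0.467 RPKM in m90, 22.6 in s215, 3.28 in atprmt5 and 1.66 in wild type, 48.3-fold lower in m90 than in s215 (24.3 to 103). The m90 level was the lowest and the s215 level the highest of the 4 libraries. Of 16 genes of the FLC clade and autonomous pathway, 7 were lower in m90 and 0 higher, and the median was -0.73. MAF5, MAF3, MAF4 and FLM, relatives of FLC, were at 5.11, 5.44, 2.95 and 24.1 RPKM in m90, and at 25.6, 18.2, 7.65 and 60.7 in s215. FCA and FPA, which act to lower FLC, were also lower, at 4 and 7.04 RPKM in m90, and at 10.5 and 17 in s215. FLK, an RNA-binding protein gene of the same pathway, was at 20.7 RPKM in m90, 38.8 in s215, 35.6 in atprmt5 and 17.6 in wild type, 1.87-fold lower (1.73 to 2.03). For FLK, m90 lay with wild type and s215 with atprmt5.

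The promoter of flowering SOC1 was at 35 RPKM in m90, 29.5 in s215, 19.5 in atprmt5 and 57.8 in wild type, 1.18-fold higher in m90 than in s215 (1.07 to 1.3). Both lines stood between atprmt5 and wild type. In the floral promoter and phase change list, 5 of 14 were lower in m90 and 4 higher, and the median was -0.38. SPL3 and SPL4, phase change genes, were at 14.6 and 20.5 RPKM in m90, and at 77.8 and 85.6 in s215. SMZ, which represses flowering, was at 5.07 RPKM in m90 and 0.323 in s215.

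In the clock, 5 of 12 morning genes were lower in m90 and 1, RVE7, was higher, and the median was -0.63. LHY, a core morning oscillator gene, was at 24.9 RPKM in m90, 148 in s215, 27.5 in atprmt5 and 6.07 in wild type, 5.95-fold lower in m90 than in s215 (5.61 to 6.31). Its partner CCA1 was at 148 RPKM in m90, against 469 in s215, 130 in atprmt5 and 145 in wild type, 3.17-fold lower (3.09 to 3.26). PRR9, a clock gene known for altered splicing in atprmt5, was at 15.4 RPKM in m90, 59.2 in s215, 26 in atprmt5 and 18 in wild type. Evening genes had 3 of 12 lower, PRR3, FKF1 and PRR5, and 3 higher, LUX, BOA and CHE, and the median was -0.59. Clock transcripts depend on the hour of harvest, which the labels used here do not give, so a difference in hour and a difference between lines cannot be told apart.

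PRMT5 itself (AT4G31120, on the minus strand of chromosome 4 at 15132011 to 15136696, 23 exons) was at 0.974 RPKM in m90, 1.7 in s215, 1.25 in atprmt5 and 5.94 in wild type, 1.75-fold lower in m90 than in s215 (1.15 to 2.65). Both lines were as low as the mutant within a factor of 2 and below wild type. Of 9 arginine methyltransferase genes, 1 was higher in m90 and 0 lower, and the median was 0.44. It was PRMT1A, at 12.3 RPKM in m90, against 1.23 in s215, 6.98 in atprmt5 and 5.92 in wild type, 10-fold higher (7.05 to 14.9).

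Splicing machinery transcripts separated the lines less than most of the groups above. Of 18 genes of the NTC and its associated proteins, 4 were lower in m90 and 0 higher, and the median was -0.48. They were SKIP, at 70.3 RPKM in m90, 225 in s215, 82.5 in atprmt5 and 84.6 in wild type, CDC5 at 129, 352, 165 and 186, AT1G80930 at 96.8, 228, 108 and 99.7, and MAC5B at 3.92, 9.58, 8.19 and 6.27. The first 3 of these are high in s215, with m90 below wild type, by least for AT1G80930. The ubiquitin ligase genes MAC3A (21 RPKM in m90, 24.7 in s215) and MAC3B (58.2 and 86), which are the Prp19 homologues, MOS4 (37 and 43.1) and PRL1 (37.2 and 39.6) lay within 2-fold.

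In the U5 and catalytic core list, 4 of 17 were lower in m90 and 1 higher, and the median was -0.66. SUS2 (AT1G80070, chromosome 1, 30117847 to 30127811, 24 exons), which encodes PRP8 at the catalytic centre of the spliceosome, was at 30 RPKM in m90, 53.2 in s215, 34.2 in atprmt5 and 31.2 in wild type, 1.77-fold lower in m90 than in s215 (1.70 to 1.84). Its paralogue AT4G38780 was below the minimum, at 0.205 RPKM in m90 and 0.322 in s215. The helicase gene PRP16 was at 39.3 RPKM in m90 and 123 in s215. AT4G12600 was the higher member, at 262 RPKM in m90 and 103 in s215. In the list of Sm, LSm, U1 and U2 proteins 6 of 29 were higher in m90, a smaller share than among all loci, and 0 were lower. Its median of 0.28 came to -0.16 once the trend with GC content and length was removed. Among the 6 were AT4G30330, at 46.1 RPKM in m90, 5.26 in s215, 28.2 in atprmt5 and 26.9 in wild type, and RUXF, encoding an SmF protein, at 222, 66.9, 134 and 152.

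Of 20 SR protein genes, 1 was lower in m90, a smaller share than among all loci, and 0 were higher, and the median was -0.54. The single member was RS40, at 66.6 RPKM in m90, 275 in s215, 73.1 in atprmt5 and 61.3 in wild type. Of 13 hnRNP-like genes, 4 were lower and 0 higher, and the median was -0.31. GRP7, a glycine-rich RNA-binding protein gene under clock control, was at 85.9 RPKM in m90, against 458 in s215, 111 in atprmt5 and 129 in wild type. Of 9 genes of nonsense-mediated decay and the exon junction complex, 4 were lower and 0 higher, and the median was -0.74. Among them was the decay factor gene UPF3, at 14 RPKM in m90, 31 in s215, 17.8 in atprmt5 and 16.1 in wild type. The junction complex genes Y14 (187 RPKM in m90, 144 in s215) and MAGO (110 and 79.3) lay within 2-fold. The table holds 1 value per locus, so splicing itself was not analysed here.

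Transcript length went with the difference between the lines. Loci were divided into 4 groups of nearly equal size by length. In the shortest group, up to 1258 bases, the median log2 ratio was 0.50, with 35.6% higher in m90 and 12% lower. In the longest group, above 2338 bases, it was -0.30, with 14.5% higher and 21.7% lower. The groups between had medians of 0.17 and -0.01. By exon number the medians were 0.27 for 2819 loci with 1 exon, 0.19 for 7839 with 2 to 5, and -0.09 for 7621 with 6 or more. After correction for GC content and length, the medians of the splicing lists came to -0.49 for the NTC, -0.33 for U5 and the catalytic core, -0.56 for SR proteins, -0.36 for hnRNP-like genes and -0.28 for nonsense-mediated decay. SUS2 then stood at -0.22 on the log2 scale, against -0.81 without this correction. CDC5 (-0.90), AT1G80930 (-0.76), UPF3 (-0.86), RUXF (0.93), AT4G12600 (0.77), FLM (-0.96) and CHE (0.91) then lay within 2-fold, while SKIP (-1.58), PRP16 (-1.08), RS40 (-1.98) and GRP7 (-2.76) stayed past it.

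What the lines share was looked for among loci that both had on the same side of atprmt5. These loci also had to lie within 2-fold between the lines on the RPKM + 1 scale. Against atprmt5, 692 loci (3.77%) were higher and 353 (1.92%) lower in m90, and 2451 (13.4%) higher and 4019 (21.9%) lower in s215. Both differences use the same atprmt5 library, so a value specific to that library appears in both. The 8 loci furthest above atprmt5 by the smaller of their differences were GRX480, ZAT7, BCB, AT5G41750, AT1G19020, ZAT6, WRKY33 and AT1G24140. WRKY33, a factor required for defence against necrotrophic fungi, was at 479 RPKM in m90, 265 in s215, 28.5 in atprmt5 and 185 in wild type. ZAT7 and ZAT6, zinc finger genes of stress responses, were at 63.9 and 22.2 RPKM in m90, at 52 and 15.4 in s215, at 2.94 and 0.687 in atprmt5, and at 5.95 and 4.78 in wild type. GRX480, a glutaredoxin gene that links salicylic acid to jasmonate responses, was at 17.9 RPKM in m90, 22.2 in s215, 0.369 in atprmt5 and 7.77 in wild type. Stress-response genes thus stand among those that both lines had above atprmt5, and these 4 were above wild type as well.

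The 8 loci furthest below atprmt5 in both lines were AT2G01010, AT2G47440, DIN2, AGP17, EXL5, PKS1, CEP1 and SAUR29. In RPKM itself, CEP1 (1.52 in m90, 0.483 in s215) and DIN2 differed by more than 2-fold between the lines. DIN2, a beta-glucosidase gene induced by darkness and sugar starvation, was at 2.87 RPKM in m90, 6.17 in s215, 31.6 in atprmt5 and 8.34 in wild type. PKS1, a phytochrome kinase substrate gene, was at 6.77 RPKM in m90, 7.77 in s215, 33.7 in atprmt5 and 24.1 in wild type. Both genes were lower in m90 and s215 than in wild type also. AT2G01010 is an 18S ribosomal RNA locus with near-identical copies, so its values (9.92 RPKM in m90, 16 in s215, 281 in atprmt5 and 31.8 in wild type) are uncertain.

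Seed markers were low in both lines. Of the 17 seed storage and late embryogenesis genes, 0 reached the minimum. Their summed level was 4.01 RPKM in m90 and 0.547 in s215, against 66.2 in atprmt5 and 221 in wild type, and 7 and 13 of them were at 0 in m90 and s215. The cruciferin gene CRA1 was at 0.157 RPKM in m90, 0.193 in s215, 19.2 in atprmt5 and 67.8 in wild type. Of the 9 pollen and floral organ genes in the table, 1 was used, PI, at 2.39 RPKM in m90 and 0 in s215. Their summed level was 3.88 RPKM in m90, 3.06 in s215, 3.02 in atprmt5 and 3.93 in wild type. These sums were alike, but PI made up most of the m90 sum and was at 0 in s215.

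**Figure D4:**
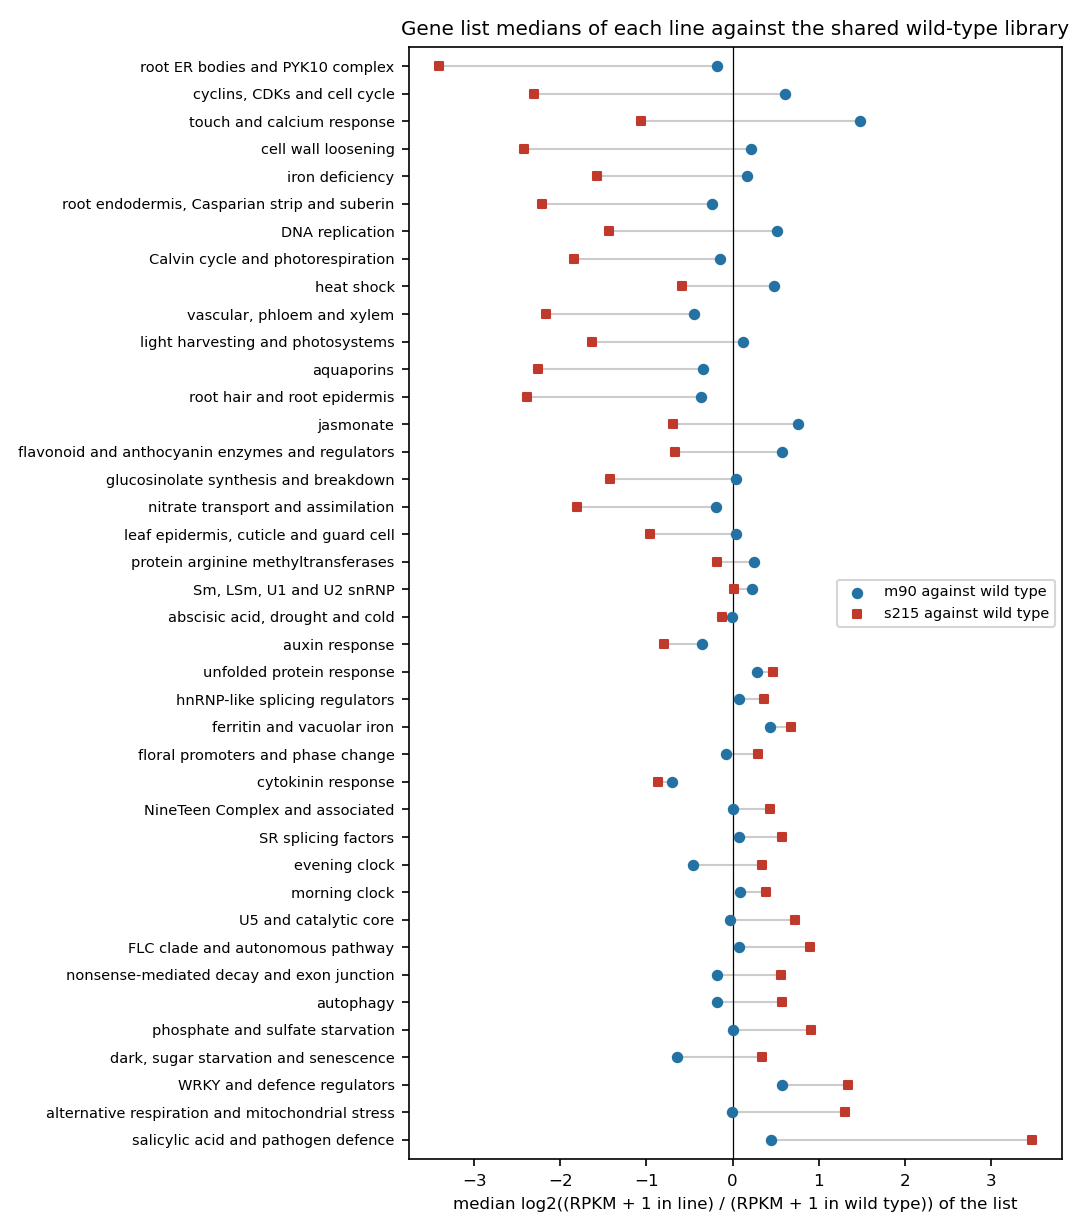
Median log2 ratio of each of 40 gene lists in m90 (blue circles) and in s215 (red squares) over the same wild-type library, with lists ordered by their median between the lines. The touch list lies on opposite sides of 0 (1.48 in m90, -1.06 in s215), and for ER bodies (-0.18 in m90, -3.41 in s215) the s215 value lies far from 0.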

How the data were processed

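Per the labels' protocols, Trizol was used to isolate RNA of whole seedlings, and SMART libraries that keep the strand were sequenced. Reads were handled with TopHat2 2.0.11 and the build TAIR10, per the submitters' processing notes. The authors deposited RPKM values for 24288 loci in 4 libraries; the counting program is not given in the sources used here. Each column of values carries the name of 1 sample.

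Log2 ratios used a pseudocount of 1 RPKM and a minimum mean of 1 RPKM over m90 and s215, in Python 3.11.15 with pandas 2.3.3, NumPy 2.4.6 and SciPy 1.17.1. Reads were recovered from RPKM steps and RefSeq TAIR10.1 transcript lengths (24183 loci matched by locus tag). Between 16.7% and 18% of values under 50 reads came out whole within 0.01 read, so reads and intervals are approximate. Named genes were drawn from the 15 highest and 15 lowest and from the 8 shared loci on each side of atprmt5. In each list they were drawn from up to 4 members past 2-fold on each side with the largest differences, and its 2 most abundant members. Not all genes picked by these rules are printed. PRMT5, SUS2, AT4G38780, FLC, FLK and SOC1 were also named. Other list members are named for their role, with their values known. The members and lists were chosen with earlier results of these data known. The call procedure was tested on simulated data. Alternatives changed the pseudocount, the minimum and the scaling, or removed the trend with GC content and length. Some items are not reported here.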

Additional observations from a re-analysis of the deposited data

How the results depend on the processing

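With 1 library per line, differences between seedlings and between lines cannot be told apart, and no left-out replicate could be tried. No paired analysis was possible because each group has 1 library and no test was made. Counts stood within 1.5 times of 4521 and 2917 in 6 of the 8 alternatives. At a pseudocount of 5 there were 2620 loci higher and 1862 lower in m90, and at a mean of at least 5 RPKM there were 2861 higher. Of the called loci, 60.8% were higher in m90, against 62.2% at a common upper quartile, 57.7% centred on the median and 56.9% with the GC and length trend removed. No list median past 2-fold and none of the named genes past 2-fold changed sign in the alternatives that gave them a value. At a pseudocount of 5 the list medians came to 1.15 for DNA replication, 1.51 for cell wall loosening, 1.4 for cell cycle, 0.80 for flavonoids, 0.90 for iron deficiency, 1.96 for ER bodies, 0.97 for endodermis, 0.57 for root hairs, 1.96 for touch, 0.92 for vascular genes and -2.18 for salicylic acid and defence. At a pseudocount of 0.5 they were 3.49 for cell cycle, 2.81 for iron deficiency, 3.96 for ER bodies, 2.54 for root hairs and -3.93 for salicylic acid and defence. At a mean of at least 5 RPKM they were 1.28 for iron deficiency, -0.95 for ferritin and -3.76 for salicylic acid and defence. With no minimum they were 0.73 for nitrate and 0.25 for ferritin, whose sign then differed from the -0.35 above. Levels below about 1 RPKM rest on few reads, so ratios against them have wide intervals.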

Other observations

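Families of loci that share a RefSeq product name were ranked after their values had been seen, among 171 product names with at least 12 loci used. The lowest median log2 ratio of m90 over s215 was that of receptor like proteins, at -2.18, with 26 of 37 lower in m90 and 1 higher. RLP34 was at 2.01 RPKM in m90, against 163 in s215, 4.25 in atprmt5 and 2.43 in wild type. Cysteine-rich receptor-like kinases followed at -1.73, with 21 of 30 lower and 2 higher, and CRK6 was at 0.101 RPKM in m90 and 73.9 in s215. The next were multidrug resistance-associated proteins at -1.39, with 9 of 15 lower and 0 higher, and S-locus lectin protein kinases at -1.22, with 8 of 14 lower and 0 higher. WRKY DNA-binding proteins stood at -1.11, with 23 of 45 lower and 10 higher. After these and the NAC domain genes (-1.07, with 26 of 50 lower and 10 higher) came disease resistance loci of the TIR-NBS-LRR class, at -0.90, of which 19 of 44 were lower and 4 higher, with RPS4 at 9.61 RPKM in m90 and 55.3 in s215. Members of these families are similar in sequence, so reads of single members may be shared between them. Members near 0 in m90, such as RLP41 (0.0758 RPKM in m90, 52.6 in s215) and CRK37 (0.0275 and 66.5), passed the minimum only through s215. Their direction was therefore set by the minimum.

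At the other end, mannose-binding lectins had a median of 2.30 (10 of 13 higher, 0 lower), lipid-transfer proteins 2.19 (33 of 46 higher, 5 lower), dirigent-like proteins 2.19 (11 of 15 higher, 0 lower), peroxidases 2.13 (35 of 43 higher, 3 lower) and arabinogalactan proteins 2.08 (18 of 22 higher, 1 lower). The peroxidase AT2G38380 was at 43.8 RPKM in m90, 0.835 in s215, 57.2 in atprmt5 and 32.6 in wild type. AGP31 was at 87.8 RPKM in m90, 1.96 in s215, 85.1 in atprmt5 and 78.1 in wild type. The direction of members at or near 0 in either line was set by the minimum. AGP30 (19.1 RPKM in m90, 0 in s215) passed it only through m90, and AGP5 (0 and 12.8) only through s215. In contrast, the lipid-transfer locus AT5G55460 was at 0 RPKM in m90, 60.5 in s215, 0.109 in atprmt5 and 0.113 in wild type. Against the shared wild-type library the medians of the peroxidases were 0 in m90 and -2.46 in s215.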
